A study of Mus musculus with 6 samples.

Results

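Immunoglobulin V segments are the germline gene pieces that encode most of the variable domain of an antibody chain. The members were the gene identifiers whose GENCODE M21 symbol starts with Ighv, Igkv or Iglv and whose gene type is not a pseudogene. There were 204 of them among the 35458 identifiers in the files: 103 Ighv segments of the heavy chain locus on chromosome 12, 98 Igkv segments of the kappa light chain locus on chromosome 6 and 3 Iglv segments of the lambda light chain locus on chromosome 16. GENCODE annotates 218 such segments, and the other 14 were not analysed here. No measured value was used to choose them.

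RNA-seq was made from CD8+ T cells of mouse spleen in 3 libraries from Cd4creGlut10fl/fl mice (KO) and 3 libraries from Cd4cre mice (control). Both groups carry Cd4cre, which drives Cre recombinase in developing T cells, and the KO mice also carry floxed alleles of Glut10, the protein of Slc2a10. Age, sex and the number of mice per library are not given in the labels. The labels do not tell whether each library is a different animal, so p-values reflect the scatter of these 6 libraries and that scatter may be technical. Slc2a10 itself was listed at 0 in all 3 KO libraries, against 0.0946, 0.0373 and 0.0373 FPKM in control 1, 2 and 3, so it was close to the detection limit in the controls too.

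In developing B cells, 1 V segment of each locus is joined to the downstream joining segments (with a D segment between them in the heavy chain), and the joined gene is then transcribed from the V segment promoter together with the constant region. T cells rearrange their own receptor loci and are not known for making antibody. Plasma cells, the antibody-secreting stage of the B lineage, hold very large amounts of immunoglobulin RNA per cell. In bulk RNA, more cells of a type and more RNA per cell cannot be told apart.

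The T cell identity of the libraries was checked first. Of 16 T cell genes fixed as a list, all were detected in every library. Their summed level was 2730, 4130 and 3107 FPKM in KO 1, 2 and 3. In control 1, 2 and 3 it was 2683, 1031 and 739 FPKM. A list of 11 neutrophil genes summed higher than the T cell list only in control 2 and control 3, to 16880 and 29481 FPKM. A macrophage list of 15 genes summed higher than it in KO 3 (3476 FPKM) and in control 1, 2 and 3 (3032, 6884 and 6005 FPKM). Immunoglobulin constant genes, a list of 12, summed higher than it in KO 2 (4497 FPKM), control 1 (6393 FPKM) and control 3 (1213 FPKM). The unit, FPKM, is the number of fragments of a gene divided by its exon length and by the size of the library. Cd8a, the CD8 alpha chain, measured 101, 252 and 90.7 FPKM in KO 1, 2 and 3, against 191, 30.3 and 31.8 FPKM in control 1, 2 and 3. The depth implied by the FPKM values was 3420290, 14683400 and 3004540 fragments in KO 1, 2 and 3 and 11840600, 15020100 and 15036300 fragments in control 1, 2 and 3. KO 1 and KO 3 were thus the shallowest libraries. A V segment is short, with a median of 359 bases, so that 1 read in a segment of this length was worth 0.814 and 0.927 FPKM in KO 1 and KO 3 and 0.185 to 0.235 FPKM in the other libraries.

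The end of the germline V exon is shown for 4 segments, because the heavy and kappa results turn on them. Ighv3-6 and Igkv8-30 had the highest mean FPKM of their loci, and Igkv20-101-2 and Ighv1-36 led their loci in KO 1 and KO 3. Each line holds the last 150 bases of the annotated V exon, 5′ to 3′, from the GENCODE M21 transcripts (GRCm38). Capitals mark the last in-frame cysteine codon of the exon, the conserved residue that opens the third complementarity-determining region (CDR3), where the joining segment is added.
Ighv3-6: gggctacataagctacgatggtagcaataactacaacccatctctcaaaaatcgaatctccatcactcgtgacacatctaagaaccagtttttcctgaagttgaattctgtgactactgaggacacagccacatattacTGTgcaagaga
Igkv8-30: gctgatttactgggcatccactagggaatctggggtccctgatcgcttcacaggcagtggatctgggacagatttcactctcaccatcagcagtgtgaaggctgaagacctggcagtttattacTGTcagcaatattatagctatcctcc
Igkv20-101-2: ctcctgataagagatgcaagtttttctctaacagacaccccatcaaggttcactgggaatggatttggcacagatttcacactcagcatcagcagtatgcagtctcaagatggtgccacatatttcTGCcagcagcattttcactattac
Ighv1-36: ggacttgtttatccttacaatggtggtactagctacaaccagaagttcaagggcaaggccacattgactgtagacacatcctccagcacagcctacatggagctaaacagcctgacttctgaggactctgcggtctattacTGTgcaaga
In the germline, 6 and 8 bases follow the cysteine codon in the heavy chain segments Ighv1-36 and Ighv3-6, and 21 and 23 bases follow it in the kappa segments Igkv20-101-2 and Igkv8-30. Igkv20-101-2 stood far from the other kappa segments in sequence: its nearest relative, Igkv11-125, matched it at 67.9% of aligned positions, while the median kappa segment had a relative at 93.9%. Heavy chain segments had a nearest relative at a median of 95.1%, and 27 of the 103 had one at 97% or more. Ighv1-62-2 and Ighv1-71 were identical to each other over the V exon. How the authors' counting treated reads shared by similar segments is not given in the sources used here, so the split between close relatives is uncertain.

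V segment RNA was present in every library, at levels that differed more within the groups than between them. All V segments together measured 683, 3264 and 497 FPKM in KO 1, 2 and 3, against 7245, 399 and 556 FPKM in control 1, 2 and 3. These sums were 0.167%, 0.794% and 0.102% of all FPKM in KO 1, 2 and 3, against 1.94%, 0.0918% and 0.144% in control 1, 2 and 3. One library of each group stood high, KO 2 and control 1, and the remaining 4 lay between 399 and 683 FPKM. KO 2 exceeded KO 3 6.57-fold, and control 1 exceeded control 2 18.2-fold. The group means were 1481 ± 1547 FPKM in the KO libraries and 2733 ± 3908 FPKM in the controls (SD, n = 3 each). The difference of the mean log2 sums, KO minus control, was -0.18, smaller than the SD of the log2 sums in either group, 1.45 in the KO libraries and 2.29 in the controls. An exact two-sided permutation test over the libraries gave p = 0.9, where the smallest p that 3 against 3 libraries can reach is 0.1. The sign of this difference turned without KO 1 (0.12), without KO 3 (0.35) or without control 1 (1.14).

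Heavy chain V segments measured 159, 1213 and 57.4 FPKM in KO 1, 2 and 3, against 2942, 121 and 136 FPKM in control 1, 2 and 3. They showed the widest spread inside the groups, 21.1-fold from KO 2 to KO 3 and 24.2-fold from control 1 to control 2. Kappa V segments measured 466, 1967 and 405 FPKM in KO 1, 2 and 3, against 4104, 253 and 380.3 FPKM in control 1, 2 and 3. Lambda V segments, the minor light chain of the mouse, measured 58.1, 84.7 and 33.9 FPKM in KO 1, 2 and 3, against 199.7, 24.7 and 39.8 FPKM in control 1, 2 and 3. In all 3 loci the groups overlapped, and control 1 was the highest library and KO 2 the second. The log2 differences, KO minus control, were -0.71 for heavy chain (exact permutation p = 0.7), -0.03 for kappa (exact permutation p = 1) and -0.08 for lambda V segments (exact permutation p = 0.9), all two-sided. Leaving out control 1 gave 0.79, 1.21 and 0.81 for heavy chain, kappa and lambda V segments, and leaving out KO 3 gave 0.27, 0.38 and 0.27. Without KO 2 they were -1.93, -0.75 and -0.39.

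**Figure D1:**
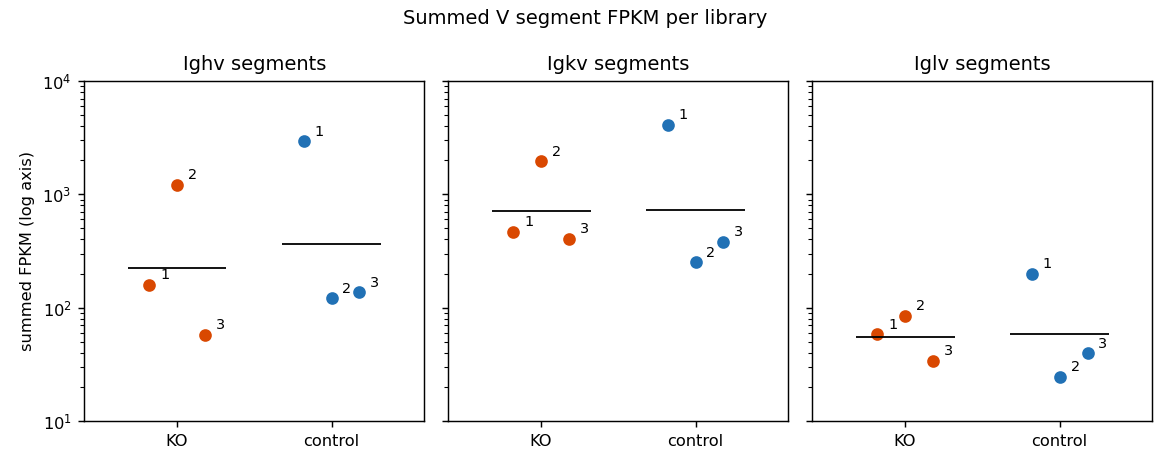
Summed FPKM of the Ighv, Igkv and Iglv segments (log axis), 1 point per library labelled with its replicate number, KO left and control right; the bar is the geometric mean of the 3 libraries. KO 2 and control 1 are the highest of their group in each panel, and the groups overlap.

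The share of light chain V FPKM taken by lambda was 11.1%, 4.13% and 7.71% in KO 1, 2 and 3, against 4.64%, 8.89% and 9.47% in control 1, 2 and 3. Kappa exceeded heavy chain V FPKM 2.93-fold, 1.62-fold and 7.06-fold in KO 1, 2 and 3, against 1.39-fold, 2.08-fold and 2.80-fold in control 1, 2 and 3. Lambda was lowest, and kappa and heavy chain closest, in KO 2 and control 1. In KO 3 the heavy chain sum rests on 62 implied reads (FPKM times gene length over the step that 1 read is worth), so its ratio is imprecise.

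The constant regions of the antibody genes were compared with the V segments library by library. Igkc, the kappa constant region, measured 287, 2764 and 394 FPKM in KO 1, 2 and 3, against 3921, 440.0 and 794 FPKM in control 1, 2 and 3. Kappa V FPKM per Igkc FPKM was 1.62, 0.711 and 1.03 in KO 1, 2 and 3, against 1.05, 0.574 and 0.479 in control 1, 2 and 3. Without Igkv20-101-2 the same ratio was 1.11, 0.711 and 0.488 in KO 1, 2 and 3, against 1.04, 0.572 and 0.478 in control 1, 2 and 3. KO 2 and control 1 were the 2 highest libraries for Igkc as they were for the kappa V sum. Class-switched heavy chains (IgG, IgA and IgE) made up 9.38%, 82.6% and 15.4% of the heavy chain constant FPKM in KO 1, 2 and 3, against 91.4%, 77.2% and 82.5% in control 1, 2 and 3. KO 1 and KO 3 stood apart, with Ighm, the IgM chain, as their main heavy chain constant region. Ighm measured 396, 289 and 314 FPKM in KO 1, 2 and 3, against 204, 56.1 and 68.9 FPKM in control 1, 2 and 3.

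Jchain, which encodes the chain that joins IgM and IgA units in antibody-secreting cells, measured 4.76, 154 and 6.88 FPKM in KO 1, 2 and 3, against 225, 13.5 and 38.3 FPKM in control 1, 2 and 3. Like the V segment sums, it was highest in control 1 and next in KO 2. The summed plasma cell list of 12 genes, which holds Jchain, measured 85.7, 249 and 71.6 FPKM in KO 1, 2 and 3, against 364, 157 and 158 FPKM in control 1, 2 and 3. Without Jchain, the other 11 genes summed to 80.9, 95.5 and 64.7 FPKM in KO 1, 2 and 3, against 138.6, 143.9 and 119.8 FPKM in control 1, 2 and 3, so that KO 2 lay below every control. KO 2 and control 1 were the 2 highest libraries for 6 of the 12 genes: Jchain, Sdc1, Mzb1, Derl3, Eaf2 and Tnfrsf13b. Mzb1 measured 14.2, 16.3 and 15.1 FPKM in KO 1, 2 and 3, against 32.4, 7.06 and 7.64 FPKM in control 1, 2 and 3. Xbp1, a transcription factor of secretory cells, was the largest member of the 11-gene sum in every library. It measured 25.9, 31.3 and 24.5 FPKM in KO 1, 2 and 3, against 47.7, 84.9 and 62.98 FPKM in control 1, 2 and 3. Irf4 measured 11.99, 16.4 and 4.28 FPKM in KO 1, 2 and 3, against 17.3, 23.1 and 28.1 FPKM in control 1, 2 and 3. Both were thus highest in control 2 and control 3, and the position of KO 2 in the 11-gene sum depends on them. The whole list had 0, 0 and 2 genes at 0 in KO 1, 2 and 3 and 0, 1 and 0 in control 1, 2 and 3. The B cell list of 18 genes summed to 189, 149.8 and 144 FPKM in KO 1, 2 and 3, against 149, 75.7 and 88.95 FPKM in control 1, 2 and 3. KO 2 and control 1 were the 2 highest libraries for 3 of the 18 genes. The same 2 libraries were highest for 8 of the 16 genes of the T cell list. Among the 13956 genes of the limma test below, they were highest for 14.5%. In the immunoglobulin constant list they were highest for 6 of the 12 genes. As an order of rank, it was thus found in other lists as well. The sums did not all share it: that of the T cell list was 2683 FPKM in control 1, against 2730 and 3107 FPKM in KO 1 and KO 3. In the B cell list 1 gene, Fcer2a in control 2, was at 0 in any library. The neutrophil list of 11 genes summed to 268, 74.4 and 711 FPKM in KO 1, 2 and 3, against 439, 16880 and 29481 FPKM in control 1, 2 and 3. The part of these other cells in the V segment levels was not tested.

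**Figure D2:**
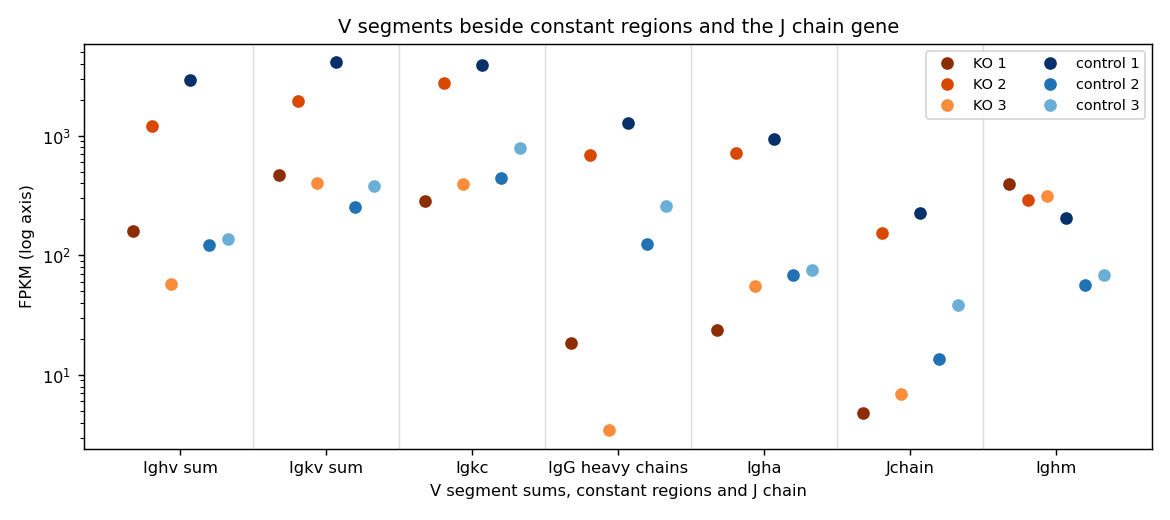
FPKM (log axis) of the summed heavy chain and kappa V segments beside Igkc, the summed IgG heavy chains, Igha, Jchain and Ighm, 1 point per library, KO libraries in orange and left of the controls in blue. KO 2 and control 1 are the 2 highest libraries for each quantity except Ighm, which is highest in KO 1.

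Few segments separated the groups. Of the 204 segments, 124 had at least 1 FPKM in at least 3 libraries and entered the limma test on log2(FPKM + 1), in which 13956 genes were tested and p-values adjusted over all of them by Benjamini-Hochberg. Of the 124, 0 passed an adjusted p of 0.05, where 0.0% of all genes tested did. The smallest adjusted p of a segment was 0.417. At an unadjusted p under 0.05 there were 2 segments, where 11.8% of all genes tested were under it. Of these 1 was higher in the KO libraries, where 5.33% of all genes tested were, and 1 was lower, where 6.46% were. limma-voom on implied reads called 0 of 96 segments, with 0 at an unadjusted p under 0.05. Among the 124, the KO and control libraries did not overlap for the same number of segments, 1 higher and 1 lower, or 1.61% of the 124, where 16.1% of all genes tested did not overlap (6.7% higher and 9.44% lower). Fitted log2 differences were above 0 for 29 segments and below 0 for 95, with a median of -0.78, where 56.9% of all genes tested were above 0 and their median was 0.10. limma-voom turned this direction, with 55 fitted higher and 41 lower of 96 (median 0.14).

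Those counts depended on which library was left out. Without control 1, 82 of the 124 segments were fitted higher and 42 lower (median 0.30), and 0 passed, where 2.60% of all genes did. Without KO 2, 13 were fitted higher and 111 lower (median -1.81), and 9 passed, where 13.05% of all genes did. The 3 that passed higher in that fit were Ighv1-36, Igkv20-101-2 and Igkv4-78, and the 6 that passed lower were Igkv10-94, Igkv12-98, Igkv3-2, Igkv5-48, Igkv6-20 and Igkv9-124. That fit keeps only the 2 shallowest libraries in the KO group. There 1 read in a segment of median length was worth 0.814 and 0.927 FPKM, so low KO values are imprecise and the 9 are given as a description only. Without KO 3, 56 were fitted higher and 68 lower (median -0.09), and without control 2 these were 16 and 108 (median -1.31), with 0 past the threshold in either. In 103 of the 124 segments tested, KO 2 and control 1 were the 2 highest libraries, where this held for 14.5% of all genes tested, and over all 204 segments it was 138.

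Of all 204 segments, tested or not, 5 had every KO library above every control and 1 had every KO library below. Of these, Ighv2-9-1 and Igkv4-63 passed the filter on low values, each only through the group where it was high, so their separation and p-values are given as a description. Ighv1-43, Ighv1-37, Ighv2-6-8 and Igkv7-33 did not pass it. Ighv2-9-1 (ENSMUSG00000095565) measured 4.75, 8.12 and 1.80 FPKM in KO 1, 2 and 3, against 0.229, 0.722 and 0.180 FPKM in control 1, 2 and 3. That is 6, 44 and 2 implied reads in KO 1, 2 and 3, against 1, 4 and 1 in control 1, 2 and 3. The log2 difference was 1.96 (SE 0.48), and it rests on few reads in 5 of the 6 libraries. Igkv4-63 (ENSMUSG00000076550) measured 0, 0.387 and 0 FPKM in KO 1, 2 and 3, against 7.68, 2.46 and 1.51 FPKM in control 1, 2 and 3. Its implied reads were 0, 2 and 0 in KO 1, 2 and 3 and 32, 13 and 8 in control 1, 2 and 3 (log2 difference -1.92, SE 0.50). At the depth of KO 1 and KO 3, 3 reads in a segment of median length correspond to 2.44 and 2.78 FPKM, which is close to the level of Igkv4-63 in control 2 and above that in control 3.

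Among heavy chain segments, Ighv3-6 (ENSMUSG00000076672) had the highest mean level. It measured 3.34, 144.8 and 0 FPKM in KO 1, 2 and 3, against 284.7, 7.80 and 4.75 FPKM in control 1, 2 and 3. It was the leading heavy chain segment in KO 2, control 1 and control 2. Of all heavy chain V reads it took 2.01% (95% exact binomial interval 0.550 to 5.07) in KO 1, 11.5% (10.7 to 12.3) in KO 2 and 0% (0 to 5.78) in KO 3. In control 1, 2 and 3 it took 9.27% (8.77 to 9.78), 6.07% (4.39 to 8.15) and 3.36% (2.19 to 4.93). Such intervals cover counting error only. The interval of KO 1 overlapped those of control 2 and control 3, and lay below those of KO 2 and control 1.

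The next heavy chain segments by mean level were Ighv8-12, Ighv9-3, Ighv7-3 and Ighv1-80. Ighv9-3 measured 4.16, 72.4 and 0 FPKM in KO 1, 2 and 3, against 93.1, 7.59 and 10.99 FPKM in control 1, 2 and 3, and was second in KO 2, control 2 and control 3. Ighv8-12 measured 0, 63.2 and 0 FPKM in KO 1, 2 and 3, against 129, 4.46 and 4.27 FPKM in control 1, 2 and 3. Ighv7-3 measured 7.29, 21.9 and 0 FPKM in KO 1, 2 and 3, against 145.7, 1.84 and 1.66 FPKM in control 1, 2 and 3. Ighv1-80 measured 1.67, 31.8 and 1.90 FPKM in KO 1, 2 and 3, against 99.9, 2.28 and 6.06 FPKM in control 1, 2 and 3. With Ighv1-55 it was 1 of the 2 heavy chain segments at 1 FPKM or more in all 6 libraries. The limma adjusted p of these segments was 0.630 to 0.833, with log2 differences of -1.95 for Ighv8-12 to -0.85 for Ighv7-3.

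Ighv1-36 (ENSMUSG00000094051) ran against this order. It measured 14.99, 1.94 and 18.02 FPKM in KO 1, 2 and 3, against 3.61, 0.190 and 3.03 FPKM in control 1, 2 and 3. It was the leading heavy chain segment of KO 1 and KO 3, with 9.05% (95% exact interval 5.45 to 13.9) and 30.6% (19.6 to 43.7) of heavy chain V reads, on 18 and 19 reads. In KO 2 and control 1, 2 and 3 it took 0.154% (0.0741 to 0.284), 0.118% (0.0659 to 0.194), 0.148% (0.00375 to 0.823) and 2.15% (1.24 to 3.47). The log2 difference was 1.78 (SE 0.87, limma adjusted p = 0.417), and the KO and control groups overlapped at KO 2. Without KO 2 it was 2.64 (limma adjusted p = 0.0380). That fit leaves out the lowest KO library of a segment picked for its level in KO 1 and KO 3, so it is a description only.

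Igkv20-101-2 (ENSMUSG00000106403) was the leading kappa segment of KO 1 and KO 3. It measured 148 FPKM in KO 1, 1.004 in KO 2 and 213 in KO 3, against 13.5, 0.786 and 0.981 FPKM in control 1, 2 and 3, on 172, 5 and 217 implied reads in KO 1, 2 and 3 and 54, 4 and 5 in control 1, 2 and 3. It held 29.8% (95% exact interval 26.1 to 33.7) and 50.5% (45.6 to 55.3) of kappa V reads in KO 1 and KO 3. In KO 2 it held 0.0469% (0.0152 to 0.109), and in control 1, 2 and 3 it held 0.300% (0.225 to 0.391), 0.286% (0.0780 to 0.730) and 0.237% (0.0771 to 0.553). KO 1 and KO 3 thus stood above all other libraries. In FPKM, KO 2 lay close to control 2 and control 3. Its share of reads was below that of every control, though its interval overlapped those of control 2 and control 3. The log2 difference was 3.43 (SE 1.89, limma adjusted p = 0.423), and 5.59 without KO 2 (limma adjusted p = 0.00919). That fit leaves out the lowest KO library of a segment picked for its level in KO 1 and KO 3. It is given as a description only. No annotated gene overlaps it, and among the 98 kappa segments the nearest in sequence, Igkv11-125, matched it at 67.9%. Kappa V pseudogenes and the rest of the genome were not compared with it, so reads from such places were not tested. Igkv20-101-2 was the only one of the 5 kappa segments highest by mean whose highest library was neither control 1 nor KO 2.

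The other leading kappa segments were shared more widely. Igkv8-30 (ENSMUSG00000076577), highest by mean, measured 52.4, 117 and 28.9 FPKM in KO 1, 2 and 3, against 287.6, 7.24 and 16.6 FPKM in control 1, 2 and 3, and was first or second in KO 1, 2 and 3 and control 1. Igkv10-96 measured 8.14, 172 and 4.64 FPKM in KO 1, 2 and 3, against 158, 14.8 and 20.9 FPKM in control 1, 2 and 3. It was the leading kappa segment of KO 2 and of control 2. Igkv6-15 measured 5.06, 66.5 and 4.80 FPKM in KO 1, 2 and 3, against 270.4, 8.06 and 11.5 FPKM in control 1, 2 and 3. Igkv6-23 measured 14.3, 92.3 and 0.902 FPKM in KO 1, 2 and 3, against 244.7, 5.59 and 7.39 FPKM in control 1, 2 and 3. Igkv1-117 led in control 3 and measured 23.9, 89.0 and 14.8 FPKM in KO 1, 2 and 3, against 98.0, 7.42 and 21.6 FPKM in control 1, 2 and 3. Igkv4-74, the third segment of control 1, reached 254 FPKM there, against 18.7 FPKM in KO 2. The limma adjusted p of these 6 segments was 0.696 to 0.898, and in each of them the groups overlapped.

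The other kappa segments named for the smallest p in the higher direction were Igkv4-78 and Igkv8-16. Igkv4-78 measured 8.17, 0.190 and 11.2 FPKM in KO 1, 2 and 3, against 0.472, 1.12 and 0.557 FPKM in control 1, 2 and 3. Igkv8-16 measured 18.5, 1.80 and 9.66 FPKM in KO 1, 2 and 3, against 7.58, 2.46 and 0.351 FPKM in control 1, 2 and 3. Both were high in KO 1 and KO 3 and low in KO 2, on 10 to 24 reads in the high libraries. Their log2 differences were 1.59 and 1.29 (limma adjusted p = 0.425 and 0.501). In the lower direction Igkv13-85 measured 0, 4.91 and 0 FPKM in KO 1, 2 and 3, against 20.9, 4.22 and 2.68 FPKM in control 1, 2 and 3 (log2 difference -2.05, limma adjusted p = 0.417), with KO 2 inside the control range.

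The 3 lambda segments were above 1 FPKM in every library. Iglv1 measured 43.4, 75.6 and 12.8 FPKM in KO 1, 2 and 3, against 167, 16.3 and 31.6 FPKM in control 1, 2 and 3. Iglv2 measured 3.20, 3.54 and 3.64 FPKM in KO 1, 2 and 3, against 14.1, 2.36 and 3.27 FPKM in control 1, 2 and 3. Iglv3 measured 11.5, 5.54 and 17.5 FPKM in KO 1, 2 and 3, against 18.6, 5.94 and 4.89 FPKM in control 1, 2 and 3. Iglv1 led in every library but KO 3, where Iglv3 had 20 reads and Iglv1 15. Its share of lambda V reads was 38.5% (95% exact interval 23.4 to 55.4) in KO 3. In KO 1 and KO 2 it was 75.3% (64.2 to 84.4) and 89.7% (86.6 to 92.2). In control 1, 2 and 3 it was 84.2% (81.7 to 86.5), 67.1% (58.8 to 74.8) and 80.2% (74.5 to 85.1). The interval of KO 3 lay below that of every other library. Iglv1 and Iglv2 matched at 97.05% of positions and may share reads, while Iglv3 matched Iglv1 at 53.6%. An antisense gene overlaps Iglv1, and without a stated strand setting their reads cannot be told apart; that gene was at 0 in 5 libraries and at 0.291 FPKM in control 2. The log2 differences of Iglv1, Iglv2 and Iglv3 were -0.34, -0.43 and 0.30 (limma adjusted p = 0.879, 0.723 and 0.810).

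**Figure D3:**
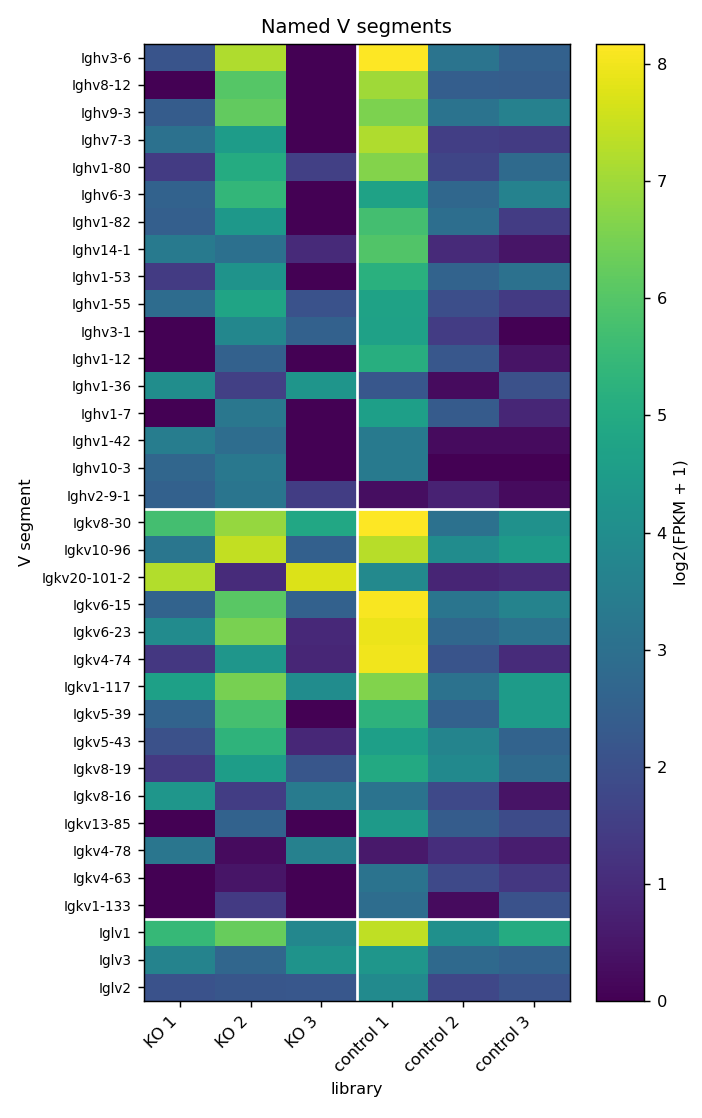
Heat map of log2(FPKM + 1) for the segments named by rule, 1 row per segment, ordered by mean FPKM within heavy chain, kappa and lambda (top to bottom), and 1 column per library, KO left. Most rows are brightest in control 1 and KO 2, while Igkv20-101-2 is brightest in KO 3 and KO 1 (213 and 148 FPKM).

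How evenly the V signal was spread over segments was measured by the share of the 5 highest segments, by Pielou evenness (1 when all segments of the locus are equal, 0 when a single one holds everything) and by the effective number of segments (the number of equal segments with the same Shannon entropy). The 5 highest heavy chain segments held 31.9%, 30.3% and 55.1% of heavy chain V FPKM in KO 1, 2 and 3, against 25.9%, 27.1% and 30.4% in control 1, 2 and 3. Heavy chain evenness was 0.760, 0.848 and 0.584 in KO 1, 2 and 3, against 0.843, 0.818 and 0.808 in control 1, 2 and 3. The effective number of heavy chain segments was 33.9, 51.0 and 15.0 in KO 1, 2 and 3, against 49.8, 44.2 and 42.4 in control 1, 2 and 3. KO 3 was the least even library and KO 2 the most even, so that the KO group enclosed the controls in evenness.

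In kappa, too, KO 3 was the least even library and KO 1 the next. The 5 highest kappa segments held 55.2%, 27.7% and 69.0% of kappa V FPKM in KO 1, 2 and 3, against 31.4%, 23.8% and 25.8% in control 1, 2 and 3. Kappa evenness was 0.664, 0.840 and 0.493 in KO 1, 2 and 3, against 0.797, 0.856 and 0.862 in control 1, 2 and 3. The effective number of kappa segments was 20.96, 47.1 and 9.57 in KO 1, 2 and 3, against 38.6, 50.7 and 52.1 in control 1, 2 and 3. KO 1 and KO 3 lay below every control, and KO 2 lay above control 1. With Igkv20-101-2 left out, evenness was 0.775, 0.841 and 0.722 in KO 1, 2 and 3, against 0.797, 0.856 and 0.862 in control 1, 2 and 3. The group difference in evenness, KO minus control, was -0.173 with all segments and -0.0590 without that 1 segment.

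Over groups, the difference of the top 5 share was 11.3 percentage points for heavy chain segments and 23.7 for kappa segments (KO minus control, exact two-sided permutation p = 0.2 for each). That of evenness was -0.0924 for heavy chain (exact permutation p = 0.4) and -0.173 for kappa (exact permutation p = 0.2). Without KO 1 and KO 3, the differences in evenness were 0.0253 and 0.00149. Without Igkv20-101-2 the kappa top 5 difference was 8.35 percentage points, and without Ighv1-36 the heavy chain one was 5.17. None could pass, since 0.1 is the smallest p of this design.

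**Figure D4:**
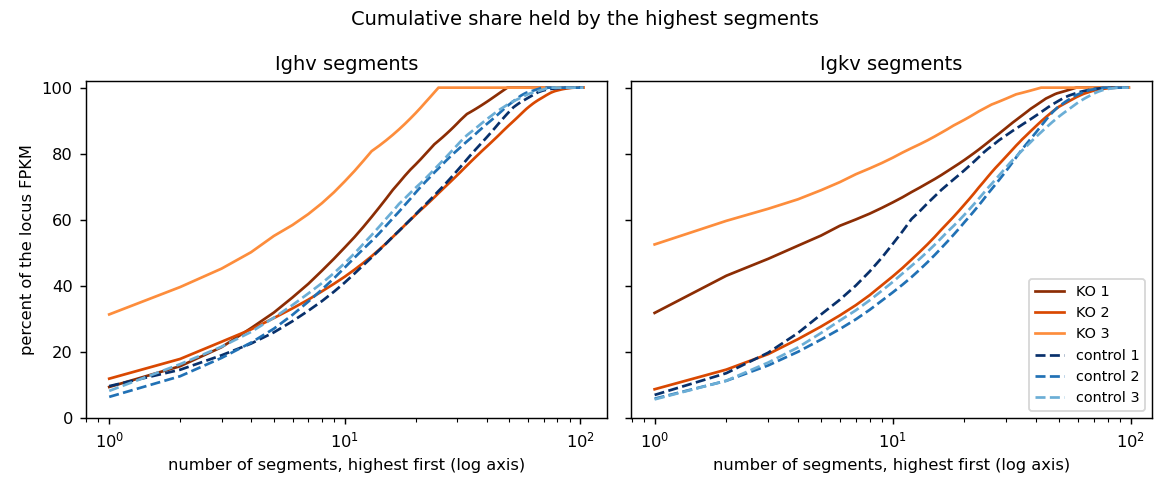
Cumulative percent of the locus FPKM held by the highest segments (number of segments on a log axis), heavy chain left and kappa right, KO libraries as solid orange lines and controls as dashed blue lines. In the kappa panel KO 3 and KO 1 start at 52.6% and 31.8% for 1 segment, against 5.67% to 8.73% in the other 4 libraries.

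Most segments were detected in KO 2 and control 1, the libraries with the highest sums. Counts at 1 FPKM are not like for like, since 1 read in a segment of median length was worth 0.814 and 0.927 FPKM in KO 1 and KO 3 and 0.185 to 0.235 FPKM in the other libraries. Heavy chain segments at 1 FPKM or more numbered 33, 83 and 13 in KO 1, 2 and 3, against 78, 33 and 34 in control 1, 2 and 3, of 103. Kappa segments at 1 FPKM or more numbered 49, 80 and 33 in KO 1, 2 and 3, against 74, 53 and 65 in control 1, 2 and 3, of 98. Segments with at least 3 implied reads over all loci numbered 71, 177 and 34 in KO 1, 2 and 3, against 169, 123 and 130 in control 1, 2 and 3. KO 2 had the most segments in every count although control 1 had the higher sum. Of the 103 heavy chain segments, 14 reached 1 FPKM in no library and 2 in all 6, and of the 98 kappa segments 6 reached it in none and 18 in all 6. Ighv3-3 was listed at 0 in every library.

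Since deeper libraries can show more segments, reads were thinned by the hypergeometric formula to the fewest in any library, 62 for heavy chain and 430 for kappa, both set by KO 3. At 62 heavy chain reads, 30.6, 34.8 and 25 segments were expected with a read in KO 1, 2 and 3, against 34.4, 32.9 and 32.3 in control 1, 2 and 3. At 430 kappa reads, 56.0, 64.8 and 42 segments were expected in KO 1, 2 and 3, against 59.1, 65.2 and 71.5 in control 1, 2 and 3. At equal reads KO 3 still showed the fewest segments in both loci and KO 1 the next fewest, while KO 2 lay among or above the controls. The group differences were -3.09 heavy chain segments (exact two-sided permutation p = 0.5) and -11.0 kappa segments (exact two-sided permutation p = 0.2). Without KO 3 the heavy chain difference was -0.524, and without KO 1 and KO 3 it was 1.62.

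**Figure D5:**
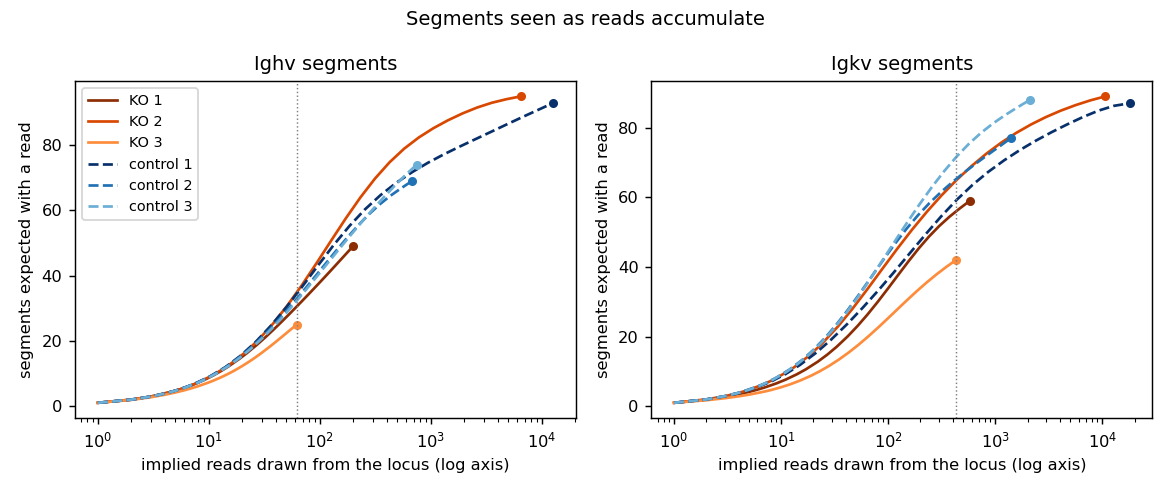
Segments expected with at least 1 read (y axis) as reads are drawn from the locus (x axis, log), heavy chain left and kappa right, KO libraries as solid orange lines and controls as dashed blue lines; points mark the full library and the dotted line the common number of reads. At that line KO 3 is lowest in both panels, at 25 of 103 and 42 of 98 segments.

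Which segments were used was more alike among KO 2 and the controls than between these and KO 1 or KO 3. Across the 98 kappa segments, Spearman's rho of FPKM was 0.78, 0.80 and 0.83 between KO 2 and control 1, 2 and 3, and 0.16 to 0.33 between KO 3 and control 1, 2 and 3. Between KO 1 and control 1, 2 and 3 it was 0.50, 0.43 and 0.40. Across the 103 heavy chain segments, rho was 0.72, 0.77 and 0.64 between KO 2 and control 1, 2 and 3, and 0.00 to 0.10 between KO 3 and control 1, 2 and 3. Segments share the library and its depth and are not independent replicates, so these values only describe the libraries, and the heavy chain values of KO 3 rest on 62 reads.

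By subgroup, the large Ighv1 subgroup (50 segments) held 50.3%, 41.4% and 64.7% of heavy chain V FPKM in KO 1, 2 and 3, against 40.9%, 48.0% and 42.0% in control 1, 2 and 3. Ighv3, the subgroup of Ighv3-6, held 2.10%, 15.4% and 8.28% in KO 1, 2 and 3, against 17.6%, 8.83% and 4.39% in control 1, 2 and 3. Ighv3 was thus high in the same 2 libraries as the sums. In the kappa locus, Igkv6 (9 segments) held 7.07%, 16.1% and 2.06% in KO 1, 2 and 3, against 29.1%, 11.8% and 11.1% in control 1, 2 and 3, and Igkv4 (26 segments) held 11.7%, 18.7% and 11.8% in KO 1, 2 and 3, against 21.7%, 16.3% and 12.1% in control 1, 2 and 3. Along the loci, the 51 heavy chain segments annotated nearest the constant region held 49.6%, 52.6% and 37.0% of heavy chain V FPKM in KO 1, 2 and 3, against 52.7%, 50.3% and 54.2% in control 1, 2 and 3. The 49 kappa segments nearest theirs held 40.2%, 55.4% and 29.96% in KO 1, 2 and 3, against 56.4%, 54.3% and 52.9% in control 1, 2 and 3. KO 3 was lowest in both loci and KO 1 next lowest. Igkv20-101-2 is not among the 49.

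KO 1 and KO 3 also differed in genes outside the B lineage. Identifiers at 1 FPKM or more numbered 18934, 12200 and 19268 in KO 1, 2 and 3. In control 1, 2 and 3 they numbered 13713, 12559 and 12850. Protein-coding genes held 71.8%, 79.8% and 72.0% of all FPKM in KO 1, 2 and 3. In control 1, 2 and 3 they held 81.3%, 85.3% and 87.6%. Of 814 genes for olfactory and vomeronasal receptors, known from sensory neurons, 16.95%, 0.123% and 18.7% had at least 1 FPKM in KO 1, 2 and 3, against 1.72%, 0% and 0.123% in control 1, 2 and 3. The 41 V pseudogenes left out by the rule summed to 34.1, 1.69 and 37.3 FPKM in KO 1, 2 and 3, against 5.45, 1.17 and 4.36 FPKM in control 1, 2 and 3. Pseudogenes were therefore highest in the 2 libraries where most V segments were not. Their sum was 33, 7 and 35 implied reads in KO 1, 2 and 3 and 21, 6 and 22 in control 1, 2 and 3. The part of this signal in the levels of Igkv20-101-2, Ighv1-36, Igkv4-78 and Igkv8-16 was not tested.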

How the data were processed

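RNA-seq values of 6 libraries were used as deposited. The values deposited by the authors are FPKM, 1 per gene and library. The unit was read from the values, since the file headers do not name it. Tools named in the submitters' processing notes are HISAT2 2, Bowtie2 2.2.3 and HTSeq 0.6.0, and the build named there is mm8; what each was used for is not stated. The read-to-FPKM step, strand setting and annotation are not given in the sources used here. Of 35458 identifiers, 35358 matched GENCODE M21, which gave symbols, gene types, exon lengths and order along loci. No coordinates are given because the notes name another build.

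Multiplied by exon length, FPKM values of a library are multiples of a single unit, taken as 1 read. With a tolerance of 0.02 read, 92.1% to 93.4% of the values below 200 reads came out whole, as did 100% of the 865 segment values above 0. This unit gives the depths, which range from 3004540 to 15036300 fragments.

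Gene tests used limma 3.58.1 with its mean-variance trend, run in R 4.3.3 on log2(FPKM + 1). Genes were kept where 3 or more libraries reached 1 FPKM, with Benjamini-Hochberg adjustment over all of them. Fold changes on this scale are understated for low genes. Sums, shares, evenness and segment counts were compared by exact permutation over libraries. Procedures were tested on simulated data. Python 3.11.15, pandas 2.3.3, scipy 1.17.1 and Biopython 1.88 were used.

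Named segments were, per heavy chain and kappa locus, the 5 highest by mean, the 3 highest of each library and the 3 smallest p in each direction, plus all lambda segments. Not all are described. The members, marker lists, tests and alternatives were chosen with earlier results of these data known. Of the marker lists, those not described in the results were pre-B and recombination (sums of 2.41 to 5.91 FPKM in the KO libraries and 0.913 to 2.22 in the controls), germinal centre (52.4 to 59.7 and 41.5 to 52.5), octamer factors (13.9 to 26.6 and 7.54 to 28.8) and erythroid (4.05 to 34.96 and 6.34 to 2242). The macrophage (463 to 3476 and 3032 to 6884) and immunoglobulin constant lists (765 to 4497 and 708 to 6393) were described only in part. The limma test called 0 genes of any list. Alternatives were another pseudocount, no filter, quantile or protein-coding scaling, the replicate number as a block, implied reads, other thresholds and leaving out libraries.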

Additional observations from a re-analysis of the deposited data

How the results depend on the processing

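The difference of log2 summed FPKM, KO minus control, ran from -1.01 to 1.14 for all V segments when 1 library at a time was left out, from -1.93 to 0.79 for heavy chain, from -0.80 to 1.21 for kappa and from -0.70 to 0.81 for lambda V segments. The difference in segments at 1 FPKM or more ran from -25.3 to 9.67 for heavy chain and from -23 to 0.5 for kappa, and the number of V segments past the adjusted p in limma ran from 0 to 9, the 9 without KO 2. Without KO 1 and KO 3 together, the summed differences were 1.48 for all, 1.73 for heavy chain, 1.42 for kappa and 0.54 for lambda V segments. In that setting the differences were 0.0253 and 0.00149 in heavy chain and kappa evenness, 34.7 and 16 in segments at 1 FPKM or more, and 1.62 in heavy chain segments expected at equal reads. The KO group is then a lone library, so its own scatter is unknown. A limma fit of that setting assumes that it varies like the controls. Without control 2 and control 3 together, the summed differences were -2.81 for all, -3.72 for heavy chain, -2.51 for kappa and -1.86 for lambda V segments, and 5 segments were fitted higher and 119 lower (median -2.57). The kappa sum also changed sign, to 0.0279, with V pseudogenes added and, to 0.0289, when scaled to the protein-coding sum. The cause of these changes was not tested. The kappa difference was above 0 without KO 1 as well. Apart from leaving out libraries, no other setting changed the direction of a sum, share, evenness or segment count. Leaving out Igkv20-101-2 or Ighv1-36 was chosen after seeing the data. Of 35 named segments, 12 changed sign without KO 3, 11 without control 1 and 22 without KO 1 and KO 3. With limma-voom, 10 of 29 changed sign, and the split was 55 fitted higher and 41 lower of 96 segments, against 29 and 95 of 124 on log2(FPKM + 1). Same-numbered libraries of the groups correlated at 0.11, 0.02 and 0.02 in their deviations from the group means. These values show no pairing by number but cannot exclude it, and the labels do not state one. With the replicate number as a block, limma called 0 segments, with 5 at an unadjusted p under 0.05 against 2 without it, and the difference of the all V sum stayed at -0.18 (exact sign-flip p = 0.75, where 0.25 is the smallest). Values of KO 1 and KO 3 rest on 854 and 531 V reads, which limits what can be said of single segments there.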
